A study of Mus musculus with 2 samples.

Results

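The 8 genes described here encode subunits of voltage-gated sodium channels and were measured in the hindbrain of mouse embryos. They are the alpha subunit genes Scn1a, Scn2a, Scn3a, Scn8a and Scn9a and the beta subunit genes Scn2b, Scn3b and Scn4b. They were chosen by gene symbol, with no measured value in the rule, although earlier results of these data were known. All 8 were found by identifier among the 43346 Ensembl genes listed. Tissue came from B6NCrl embryos at day 16.5, with males and females pooled and with no engineered allele or treatment in the labels. There was 1 group of 2 biological replicates, each a pool and each 1 library made from 10 ng of RNA longer than 200 bases. Replicate 2 held 37 embryos, and the sources used here do not give the number for replicate 1. Libraries summed to 42467811 and 42017008 expected counts, spike-ins included, which made up 2.177% and 1.595%. Of these totals the 8 genes held 0.0736% and 0.0706%. A single group allows no comparison of conditions, and permuting 2 libraries cannot give a p below 0.5, so none is given.

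Voltage-gated sodium channels carry the inward current of the rising action potential. An alpha subunit forms the pore and the voltage sensors, and beta subunits are single-pass membrane proteins with an immunoglobulin fold that tune gating, surface delivery and cell adhesion. In the rodent brain Scn3a is known as an embryonic form that declines after birth and Scn2a as the channel of early axon initial segments, while Scn8a takes over at mature initial segments and nodes of Ranvier. Several alpha genes also switch between tandem copies of a coding exon during development.

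The 2 alpha subunit genes with the highest levels were Scn2a and Scn3a. Levels are in TPM, a relative abundance corrected for transcript length, so that genes can be compared. Scn2a had 36.8 TPM in replicate 1 and 39.4 in replicate 2, from 5711 and 5664 counts, a mean of 38.1 ± 1.88 TPM (SD, n = 2). The embryonic form Scn3a had 38.1 and 31.7 TPM, from 6712 and 5974 counts, a mean of 34.9 ± 4.50. Scn3a led in replicate 1 and Scn2a in replicate 2. Together they held 67.6% of the summed TPM of the 5 alpha genes in replicate 1 and 64.6% in replicate 2. In bulk tissue, fewer cells of a type and less RNA per cell cannot be told apart.

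The other alpha genes stood lower. Scn1a, a channel of inhibitory neurons whose loss causes epilepsy, had 16.1 and 20.5 TPM, a mean of 18.3 ± 3.12. Scn9a, best known from sensory and sympathetic neurons, had 10.8 and 12.0 TPM, a mean of 11.4 ± 0.827. The channel of mature nodes, Scn8a, was lowest of the 5, with 8.95 and 6.46 TPM and a mean of 7.71 ± 1.76. Over protein-coding transcripts alone Scn9a had 5.58 and 5.95 TPM and Scn8a was unchanged, so Scn9a was then the lowest in both replicates. Counts behind these values were 1538 and 1855 for Scn1a, 1631 and 1848 for Scn9a and 1820 and 1512 for Scn8a. Scn8a thus had more counts than Scn1a in replicate 1 at a lower TPM, because TPM divides the counts of each transcript by its length. In that replicate the short transcript Scn1a-206 held 8.42 of the 16.1 TPM of Scn1a, from 119 counts.

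Among beta subunits Scn3b dominated. Scn3b, which associates with the alpha subunit without a covalent bond, had 138 and 125 TPM, from 12901 and 11926 counts, a mean of 132 ± 9.50. It held 93.6% of the TPM of the 3 beta genes in replicate 1 and 93.4% in replicate 2, and 94.1% of protein-coding genes had a lower mean. Scn2b, which is joined to the alpha subunit by a disulfide bond, had 8.77 and 8.36 TPM, a mean of 8.57 ± 0.290 from 851 and 832 counts. Scn4b, also disulfide-linked and known for the resurgent current of Purkinje cells, had only 0.69 and 0.51 TPM, a mean of 0.60 ± 0.127 from 84 and 63 counts. The TPM sum of the 3 beta genes was 148 and 134, against 111 and 110 for the 5 alpha genes.

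A level of at least 1 TPM in each library was reached by 7 of the 8 genes, the exception being Scn4b. Of all 21474 protein-coding genes 63.5% reached it. The median of the 8 means was 14.8 TPM, against 5.82 TPM over all protein-coding genes.

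**Figure D1:**
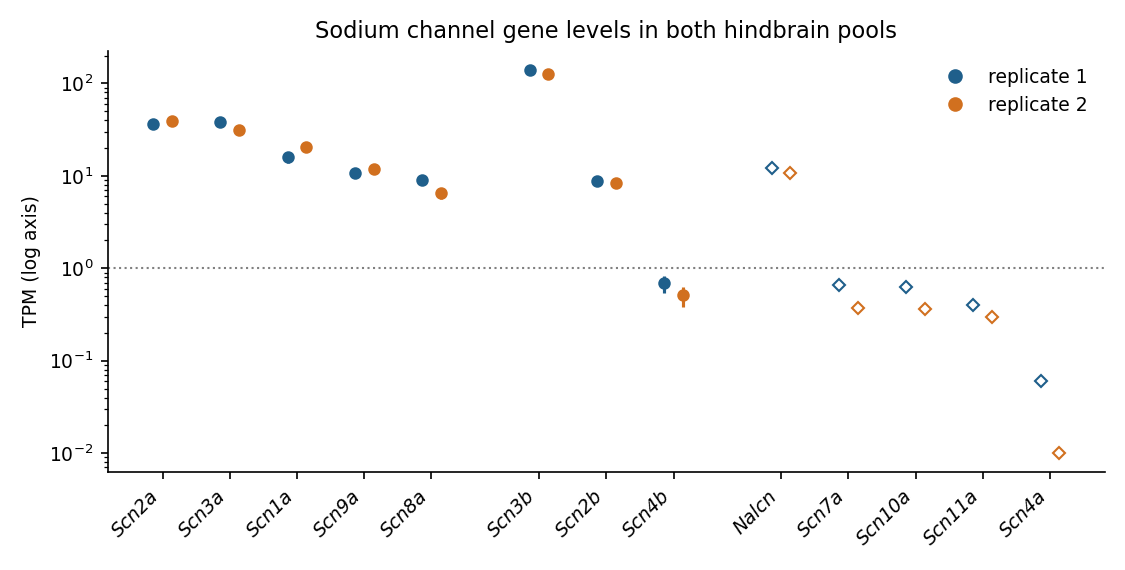
Levels of the 5 alpha genes, the 3 beta genes and 5 further channel genes. The vertical axis is TPM on a log scale, filled circles are the 8 genes with the deposited interval as a bar (often shorter than the marker), open diamonds are the further genes, and the dotted line is 1 TPM. Scn3b sits at 138 and 125 TPM, above all others, and Scn4b lies below the line in both replicates.

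From highest to lowest mean the order was Scn3b, Scn2a, Scn3a, Scn1a, Scn9a, Scn2b, Scn8a and Scn4b. A pair of genes was called different when the intervals that the authors deposited for TPM did not overlap in either library and the direction was the same. By this rule 25 of 28 pairs differed, including 8 of 10 alpha pairs and all 3 beta pairs. The share of pairs called among all protein-coding genes was not computed, so this count is not shown to be particular to these genes. Scn2a and Scn3a, with a log2 ratio of -0.05 in replicate 1 and 0.31 in replicate 2, were not called. Nor were Scn9a and Scn8a, at 0.27 and 0.89, or Scn2b and Scn8a, at -0.03 and 0.37. The interval of Scn2a ran from 33.8 to 38.7 TPM in replicate 1 and from 36.1 to 41.6 in replicate 2, and that of Scn3a from 35.0 to 40.1 and from 29.2 to 33.4. In each of these 3 pairs the intervals overlapped in replicate 1 and lay apart in replicate 2. The intervals cover the error of the authors' quantification and not the spread between pools.

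The called alpha pairs differed by 1.59-fold to 5.01-fold. Scn2a was 5.01-fold above Scn8a (log2 ratio 2.32 ± 0.40, SD, n = 2), and Scn3a was 4.57-fold above it (2.19 ± 0.15). Scn2a exceeded Scn1a by 2.10-fold (1.07 ± 0.18) and Scn3a exceeded Scn1a by 1.92-fold (0.94 ± 0.43). At the lower end Scn1a was 1.59-fold above Scn9a (0.67 ± 0.14). The beta genes were farther apart, with Scn3b 15.4-fold above Scn2b (3.94 ± 0.06) and Scn2b 14.4-fold above Scn4b (3.85 ± 0.26).

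A large part of the TPM of several alpha genes came from short annotated transcripts with few reads. In Scn1a the transcript Scn1a-206, quantified with a length of 660 bases, had 119 and 162 counts. It took 7.72% of the counts of the gene in replicate 1 and 8.73% in replicate 2, but 52.4% and 54.7% of its TPM. The leading full-length transcript, Scn1a-203 with 8386 bases, took 77.2% and 71.1% of counts and 35.5% and 30.2% of TPM. The order of these transcripts was thus opposite between counts and TPM in both libraries. In M21 Scn1a-206 is 1690 bases long with an incomplete coding sequence. The retained intron transcript Scn1a-205 took a further 7.69% and 9.72% of TPM.

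The same held in part for the other alpha genes. In Scn2a the full-length Scn2a-201 took 67.5% and 55.4% of TPM, and Scn2a-204, quantified at 463 bases from 78.2 and 114 counts, took 23.3% and 30.9%. A retained intron transcript, Scn2a-203, took 7.43% and 6.96%. Scn3a was led by its full-length transcripts, Scn3a-202 at 52.1% and 55.1% and Scn3a-201 at 26.9% and 27.4%, while the fragment Scn3a-203 of 365 bases took 20.4% and 16.8% from 52.0 and 36.5 counts. Scn9a was led by Scn9a-204, a retained intron transcript of 3642 bases with no coding sequence, at 46.1% and 47.8% of TPM and 27.2% and 28.3% of counts. Its main coding transcript, Scn9a-202, took 28.8% and 30.2% of TPM, Scn9a-203 took 14.4% and 10.0%, and Scn9a-207 took 7.97% and 8.99%. The transcripts of Scn8a were the least alike between pools. Scn8a-205 took 36.7% and 46.3% of TPM, Scn8a-201 took 33.3% and 15.4%, the short coding Scn8a-202 of 1072 bases 30.1% and 17.9%, and Scn8a-203 was listed at 0 in replicate 1 and took 20.3% in replicate 2.

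**Figure D2:**
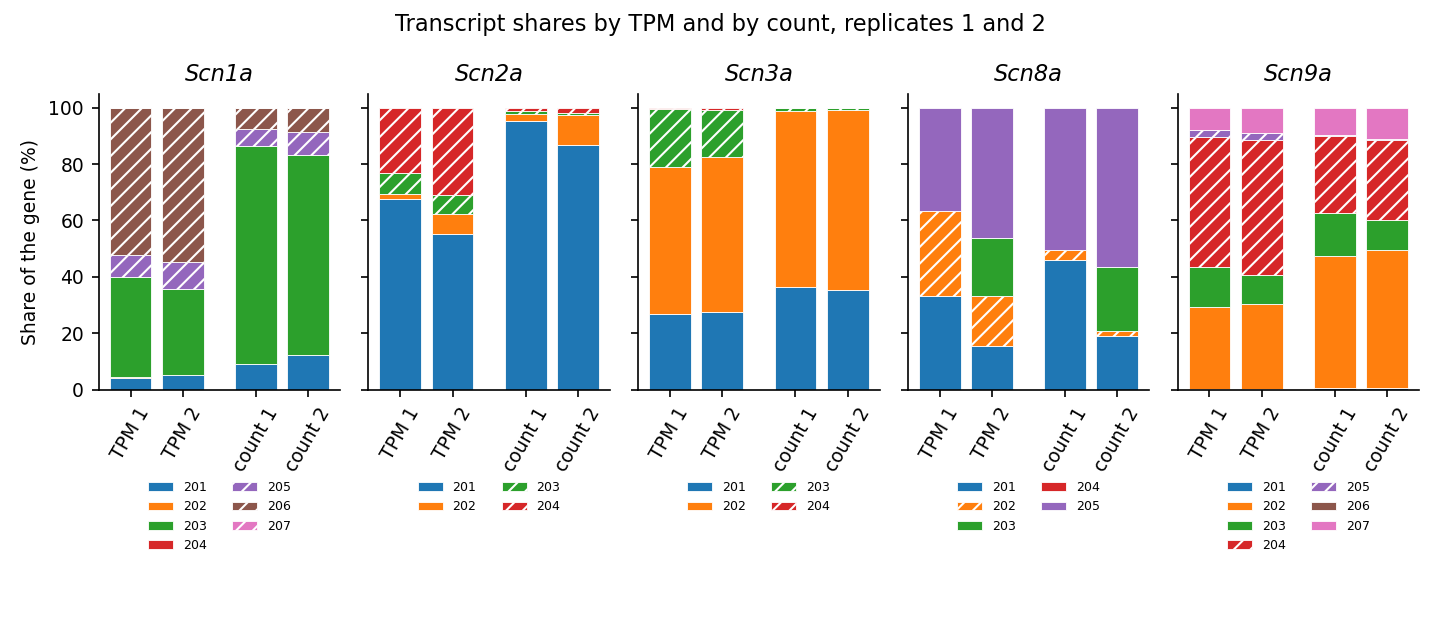
Share of each alpha gene taken by its transcripts, in percent of the gene's TPM (left pair of bars) and of its counts (right pair) in replicates 1 and 2. Colours are transcripts by number, and hatching marks those that are not full-length coding. Hatched parts hold far more of the TPM than of the counts, as for Scn1a-206 with 52.4% of TPM and 7.72% of counts in replicate 1.

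Scn2b and Scn4b had few transcripts. Scn2b-201 held 98.8% and 98.2% of the TPM of Scn2b, and Scn4b had a single transcript. Scn3b was carried by Scn3b-201, at 53.7% and 54.2%, and Scn3b-203, at 29.1% and 28.0%, which each have 645 coding bases. A retained intron transcript, Scn3b-204, took 6.56% and 7.36%.

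Counting full-length coding transcripts alone brought Scn1a, Scn8a and Scn9a to nearly the same level. These transcripts were defined as having a complete coding sequence of at least 90% of the longest of the gene, a rule chosen after the transcript values were seen and read from M21. Scn3a then had 30.1 and 26.2 TPM, a mean of 28.1 ± 2.75 (SD, n = 2), and Scn2a 25.5 and 24.5, with an SD of 0.665. Scn1a had 6.42 and 7.29 TPM, Scn8a 6.26 and 5.30, and Scn9a 5.58 and 5.95. Scn3a stood above Scn2a in both replicates, with a log2 ratio of Scn2a over Scn3a of -0.24 and -0.09. Scn2a and Scn3a together took 75.3% and 73.2% of the alpha sum on this measure.

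The choice of transcripts changed the size of several ratios by more than the replicate spread. Scn1a over Scn8a fell from a log2 ratio of 1.26 ± 0.58 to 0.25 ± 0.30, and Scn1a over Scn9a from 0.67 ± 0.14 to 0.25 ± 0.06. Over all protein-coding transcripts, which keep the short Scn1a-206 and drop the retained intron transcripts, Scn1a over Scn9a moved the opposite way, to 1.41 in replicate 1 and 1.64 in replicate 2, while Scn1a over Scn8a had a mean of 1.12. Scn2a over Scn1a grew from 1.07 ± 0.18 to 1.87 ± 0.17, which is 3.65-fold. Scn9a over Scn8a was -0.17 in replicate 1 and 0.17 in replicate 2 by full-length transcripts, and -0.68 and -0.12 by protein-coding transcripts. By full-length transcripts 23 of the 25 called pairs kept their direction in both replicates. The exceptions were Scn1a over Scn2b, which went to -0.32 ± 0.18, and Scn9a over Scn2b, which went to -0.57 ± 0.11.

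**Figure D3:**
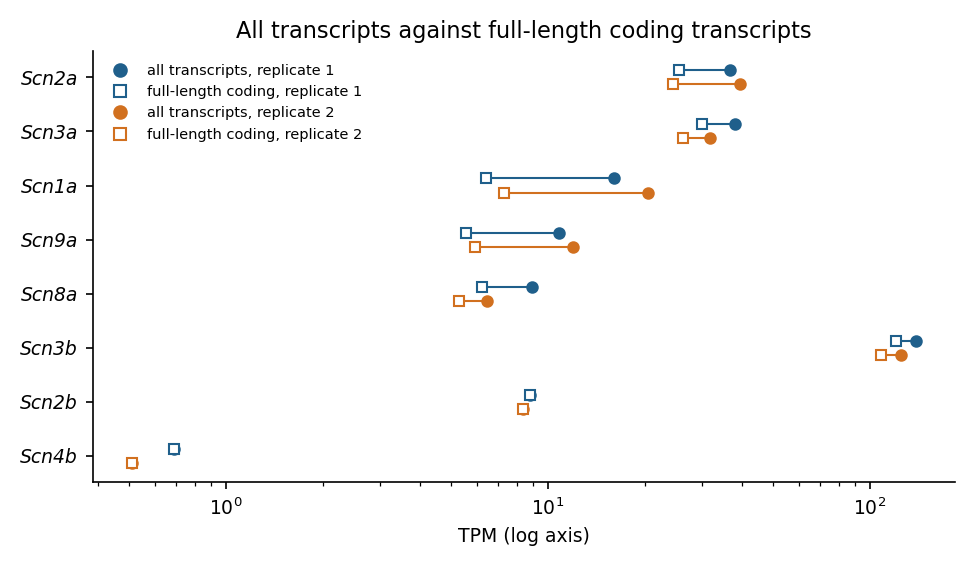
Level of each gene from all transcripts (filled circles) and from full-length coding transcripts alone (open squares), joined within a replicate, in TPM on a log axis. On the log axis, and so as a ratio, Scn1a moves most, from 16.1 to 6.42 TPM in replicate 1. The squares of Scn1a, Scn9a and Scn8a lie between 5.30 and 7.29 TPM.

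Of the alpha genes 4, Scn2a, Scn3a, Scn8a and Scn9a, have in M21 a tandem pair of alternative coding exons of 92 bases. No M21 transcript of these genes holds both. The exons encode a stretch of the voltage sensor region of the first repeat, where in Scn2a the upstream copy is known as the neonatal exon and the downstream copy as the adult exon. The downstream exons are shown because they mark one of the developmental forms. Sequences are from GENCODE M21 transcripts on GRCm38, 5′ to 3′ on the strand of the gene, and capitals mark the 8 positions at which these exons are not alike in all 4 genes.
Scn2a downstream, chr2:65682690-65682781, plus strand: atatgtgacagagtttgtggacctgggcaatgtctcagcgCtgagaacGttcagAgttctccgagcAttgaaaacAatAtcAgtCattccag
Scn3a downstream, chr2:65525695-65525786, minus strand: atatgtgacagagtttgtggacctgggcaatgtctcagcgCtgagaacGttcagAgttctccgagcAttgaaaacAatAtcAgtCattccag
Scn8a downstream, chr15:100959603-100959694, plus strand: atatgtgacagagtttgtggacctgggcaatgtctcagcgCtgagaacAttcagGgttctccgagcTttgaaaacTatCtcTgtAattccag
Scn9a downstream, chr2:66563336-66563427, minus strand: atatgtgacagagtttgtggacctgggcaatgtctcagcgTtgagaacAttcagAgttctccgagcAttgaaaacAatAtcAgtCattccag

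The downstream exons differed from each other at 0 to 7 of 92 bases over the 6 pairs of genes. Those of Scn2a and Scn3a were identical over all 92 bases. The Scn9a exon differed from these by 2 substitutions, C41T and G49A, with positions counted from 1 at the 5′ end of the exon and the Scn2a base first. The Scn8a exon, from the gene on another chromosome, differed from each of the other exons at 7 bases.

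The exon carried by the full-length transcripts differed between genes. For Scn8a, transcripts of both kinds are full-length. Scn8a-201, with the upstream exon, had 837 counts in replicate 1 and 287 in replicate 2. Scn8a-205, with the downstream exon, had 917 and 855 counts. Outside the tandem exons these transcripts share 11140 bases and differ by 61, all of them held by Scn8a-201 alone. Scn8a-203, also annotated with the downstream exon, had 0 counts in replicate 1 and 340 in replicate 2, and its length in the quantification differs from that in M21. Over the 3 transcripts with counts, the upstream form took 47.6% of TPM in replicate 1 and 18.9% in replicate 2, so the pools gave different splits.

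Scn9a gave a split that was close between pools. Transcripts with the upstream exon held 84.6% of the TPM of full-length transcripts in replicate 1 and 81.9% in replicate 2, from 1023 and 1115 counts. Scn9a-207, with the downstream exon, held 15.4% and 18.2%, from 160 and 205 counts. Of the upstream form, Scn9a-202 had 3.12 and 3.62 TPM and Scn9a-203 had 1.56 and 1.20, against 0.86 and 1.08 for Scn9a-207. Outside the tandem exons Scn9a-202 holds 2344 bases that Scn9a-207 lacks, and Scn9a-207 holds 1 that Scn9a-202 lacks. Against Scn9a-203 the reverse held, with 1027 bases in Scn9a-207 alone and 1 in Scn9a-203 alone. The split thus does not rest on the tandem exon alone.

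**Figure D4:**
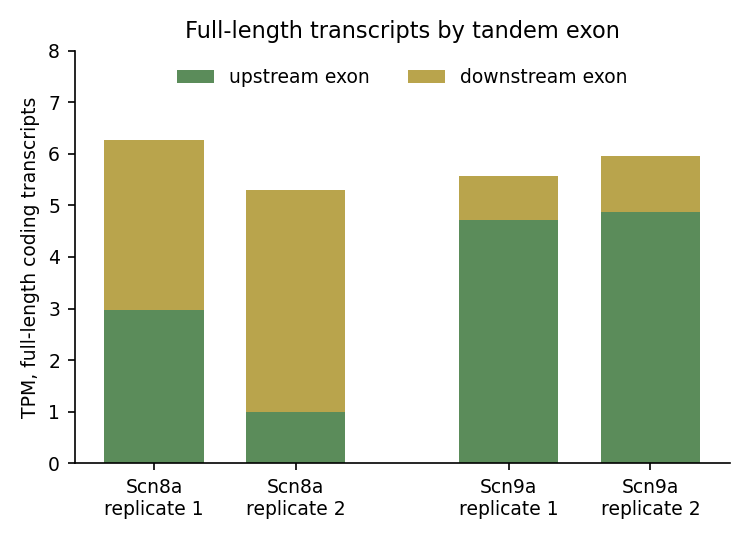
Summed TPM of the full-length coding transcripts of Scn8a and Scn9a in each replicate, divided by the tandem exon they carry (green, upstream; yellow, downstream). The upstream part of Scn8a is 47.6% in replicate 1 and 18.9% in replicate 2, while that of Scn9a is 84.6% and 81.9%.

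For Scn2a and Scn3a the split could not be read from full-length transcripts. In M21 both full-length Scn2a transcripts carry the upstream exon and both full-length Scn3a transcripts the downstream exon. Scn2a-201, with 95.4% and 86.7% of the counts of Scn2a, was quantified at 8849 bases against 8935 in M21, so its exon content in the quantification is uncertain. In Scn3a the upstream exon was present only in the 365-base fragment Scn3a-203, at 7.79 and 5.34 TPM against 30.1 and 26.2 TPM for the full-length forms. In Scn2a the downstream exon belongs in M21 to Scn2a-204, whose length there is 1810 bases against 463 in the quantification, so the sources used here do not show whether the quantified version held it.

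Sequence shared with other genes was limited at the scale of a read. Transcript length exceeded effective length by 99 bases for all transcripts over 300 bases, the value that placing 100-base reads gives. Of the 100-base windows in Scn3a transcripts 2.22% also occurred in another gene, most of them in Scn9a. The share was 1.56% for Scn9a, 1.43% for Scn2a and 0.896% for Scn1a, and 0% for Scn8a and the 3 beta genes. At 31 bases the share rose to 12.4% for Scn2a and 9.58% for Scn3a. Values for shared stretches, the tandem exons among them, are therefore uncertain in how reads were divided.

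The 8 identifiers were ENSMUSG00000064329.9 for Scn1a, ENSMUSG00000075318.8 for Scn2a, ENSMUSG00000057182.10 for Scn3a, ENSMUSG00000023033.10 for Scn8a, ENSMUSG00000075316.7 for Scn9a, ENSMUSG00000070304.7 for Scn2b, ENSMUSG00000049281.11 for Scn3b and ENSMUSG00000046480.5 for Scn4b. By position, 4 of the alpha genes lie within one stretch of chromosome 2. In order along GRCm38 these are Scn3a (65457118 to 65567627, minus strand), Scn2a (65620771 to 65767447, plus strand), Scn1a (66270778 to 66440840, minus strand) and Scn9a (66480080 to 66634962, minus strand). Scn3a and Scn2a point away from each other across 53143 bases and had similar levels, while Scn1a and Scn9a are 39239 bases apart. On chromosome 9, Scn2b (45117782 to 45130070) and Scn4b (45138395 to 45154152) are 8324 bases apart on the same strand. These 2 neighbours differed 14.4-fold. Scn3b lies at 40269217 to 40291618 on chromosome 9 and Scn8a at 100869858 to 101045938 on chromosome 15. Genes that overlap a member held few counts, the highest being Gm13629 on the opposite strand of Scn9a with 19.9 and 22.7 counts. The sources used here do not say whether counting used strand.

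Between the pools none of the 8 genes differed 2-fold. Ratios are of counts scaled by TMM, which assumes that most genes do not differ between libraries. Of the 13843 protein-coding genes whose mean was at least 1 TPM, 1.51% were past 2-fold. In TPM, intervals of the 2 replicates lay apart for 4 of the 8 genes, Scn1a, Scn3a, Scn8a and Scn3b. With Scn4b left out, whose mean was below 1 TPM, this was 4 of 7, against 31.4% of those protein-coding genes.

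The largest ratio between pools was that of Scn4b, at -0.40 on the log2 scale for replicate 2 over replicate 1, with a 95% counting interval of -0.90 to 0.09 that spans no change. Scn1a followed at 0.28 (interval 0.19 to 0.38), toward replicate 2, and Scn8a at -0.25 (-0.35 to -0.15), toward replicate 1. Scn9a was at 0.19 and Scn3a at -0.15, while Scn3b was at -0.10, Scn2b at -0.02 and Scn2a at 0.00. Thus 5 of 8 were higher in replicate 1. Of protein-coding genes with a mean of at least 1 TPM, which Scn4b did not reach, 53.1% were. Under spike-in scaling, which moved the median gene by 0.45, those 5 members changed sign and all 8 were higher in replicate 2. Under DESeq2 size factors Scn2a changed sign. The counting intervals cover counting error only.

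**Figure D5:**
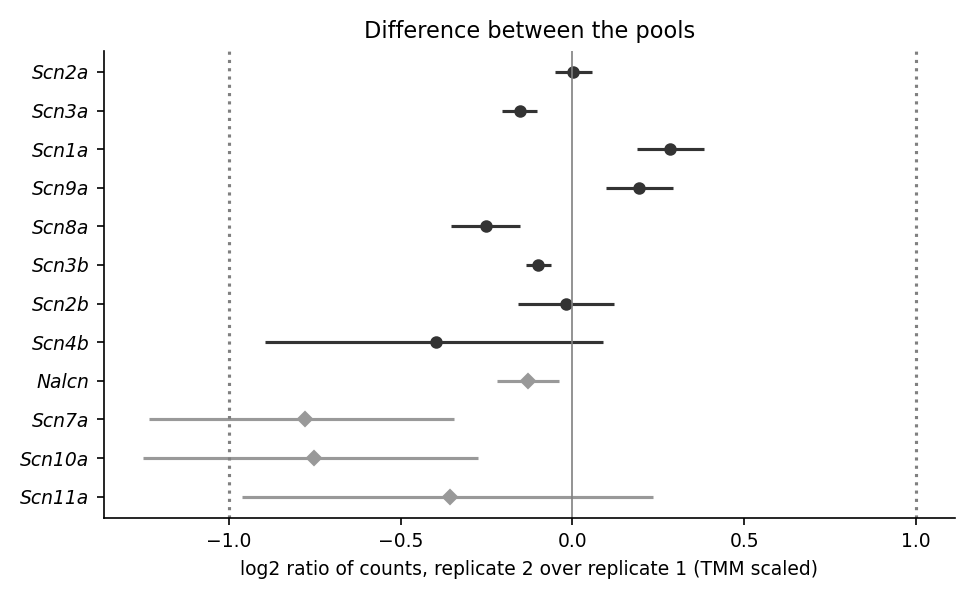
Log2 ratio of TMM-scaled counts, replicate 2 over replicate 1, with 95% counting intervals, for the 8 genes (dark circles) and 4 further channel genes (grey diamonds). Dotted lines mark 2-fold, and all 8 genes lie between them, from -0.40 for Scn4b to 0.28 for Scn1a.

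Markers of other tissues moved between these pools. The marker lists were chosen with earlier results of these data known, so the counts past 2-fold are descriptive alone. All 6 skeletal muscle markers, Myog, Ckm, Myh3, Acta1, Tnnc2 and Actc1, were over 2-fold higher in replicate 1, with a summed level of 281 TPM against 12.3 in replicate 2. The 5 forebrain markers examined, Dlx1, Dlx5, Fezf2, Six3 and Emx1, were as well, at 15.5 against 0.2 TPM, and Emx1 was listed at 0 in replicate 2. Astrocyte markers summed to 680 and 850 TPM, with 2 of 6, Gfap and Aqp4, over 2-fold higher in replicate 2. Motor neuron markers summed to 123 and 81.6 TPM, and Mnx1, with 10 counts and 1 count, was the single one of 6 past 2-fold. General neuron markers summed to 3998 and 4205 TPM, with 0 of 6 past 2-fold. The same count of 0 held for sensory ganglion and Schwann cell markers, at 63.5 and 51.7 TPM, and for oligodendrocyte lineage markers, at 210.3 and 238 TPM. The part of these markers in the differences of sodium channel genes was not tested. For the labelled tissue, 6 of 6 granule cell lineage markers and 5 of 6 Purkinje cell markers reached 1 TPM in both replicates, with Skor2 below at 0.685 ± 0.134 TPM. Their sums were 167 and 178 TPM for the granule cell lineage and 531 and 572 TPM for Purkinje cells. Over all protein-coding genes 63.5% reached 1 TPM in both replicates. Past 2-fold were 1.51% of the protein-coding genes with a mean of at least 1 TPM. Mnx1 was below that mean, and only 2 of the 5 forebrain markers reached it. With no filter on the mean, 1826 of 21474 protein-coding genes were past 2-fold.

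Of the channel genes outside the 8, 5 were examined and 4 were low. Nalcn, a sodium leak channel of neurons, had 11.4 ± 0.997 TPM. The other 4 stayed below 1 TPM in both replicates. These were Scn7a, a sodium-sensing relative of glia and sensory ganglia, at 0.515 ± 0.205 TPM, the sensory neuron channels Scn10a at 0.490 ± 0.184 and Scn11a at 0.350 ± 0.0707, and the muscle channel Scn4a at 0.035 ± 0.0354. Scn4a had 9 counts in replicate 1 and 1 in replicate 2, a log2 ratio of -2.65 with a counting interval of -8.61 to -0.30, beside the muscle markers above. Scn9a, at 10.8 and 12.0 TPM, was well above Scn10a, at 0.62 and 0.36, and above the sensory ganglion marker Prdm12, at 0.28 and 0.17.

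Partners of the channel were detected throughout. All 4 fibroblast growth factor homologous factors, which bind the C terminus of alpha subunits and shift inactivation, reached 1 TPM in both replicates. Fgf13 led at 192 ± 1.77 TPM, followed by Fgf14 at 31.4 ± 1.37, Fgf12 at 22.1 ± 2.83 and Fgf11 at 5.82 ± 0.297. All 8 axon initial segment partners did so too. The adhesion protein gene Cntn1 had 87.6 ± 6.17 TPM, Trim46, which orders microtubules of the initial segment, 69.6 ± 5.06, Ank3, the ankyrin that anchors the channels, 58.9 ± 3.30, and the adhesion molecule gene Nrcam 51.1 ± 4.70. Of these 12 genes none was past 2-fold between pools, against 1.51% of protein-coding genes with a mean of at least 1 TPM. Of all protein-coding genes 63.5% reached 1 TPM in both replicates.

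Regulators of the channel genes were also detected, 8 of 8, against 63.5% of protein-coding genes. The splicing factor genes Rbfox1, at 172 ± 4.65 TPM, Ptbp2, at 128 ± 7.42, and Rbfox2, at 69.7 ± 12.3, were highest, followed by Ptbp1 at 58.9 ± 10.7. None of the 8 was past 2-fold, against 1.51% of protein-coding genes with a mean of at least 1 TPM. These lists are described by level alone, and over all protein-coding genes the median was 5.82 TPM, against 26.7 TPM for the growth factor homologous factors, 44.6 for the initial segment partners and 58.1 for the regulators.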

How the data were processed

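RNA was sequenced from 2 pools of hindbrain, and the authors quantified each library separately on mm10 with GENCODE M4, per the deposited text notes. The sources used here do not name the quantification tool. Columns per the file headers are expected count, TPM, FPKM and interval bounds on TPM, here called scores, whose level is not stated. Isoform shares are the deposited percent of TPM per transcript, and deposited effective lengths in bases were read as given.

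Names, positions, exons and biotypes came from GENCODE M21 on GRCm38, the build of mm10, matched by identifier with the version removed. Of 43346 genes 42462 matched, including all 8 members. Transcripts whose length differs between releases are named where it matters. Features with a bare number as identifier, 4e-05% of counts in replicate 1, and spike-ins stayed out of library sizes.

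Rounded expected counts were scaled by the TMM method of edgeR 4.0.16 under R 4.3.3, with a prior count of 0.5 for log2 ratios. DESeq2 1.42.0 gave alternative size factors. Exact 95% counting intervals came from SciPy 1.17.1, under Python 3.11.15 and pandas 2.3.3. Ratios were first checked on simulated counts. Sequence windows were compared on both strands with all M21 transcripts.

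The labels give biological replicates but 1 group, so no test between conditions was made. Members, lists, pairs and alternatives were chosen with earlier results of these data known. Named are all 8 members, 5 further channel genes, transcripts with a mean share of at least 5%, up to 4 genes of each partner list, and list genes past 2-fold. The marker genes Skor2 and Prdm12 fall outside that rule where named. Alternatives covered unit, estimate, detection minimum, scaling, prior count, filter, transcript type and each replicate left out. Some list genes and the upstream tandem exon sequences are not reported here.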

Additional observations from a re-analysis of the deposited data

How the results depend on the processing

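The count of 7 detected genes became 8 at a minimum of 0.5 TPM and stayed at 7 at 5 TPM, with protein-coding or full-length coding transcripts alone and with either replicate left out. Pairs called different, 25 of 28 in both replicates, were 25 in replicate 1 alone and 28 in replicate 2 alone, and 24 of the 25 kept their direction with protein-coding transcripts alone, the exception being Scn9a over Scn2b at -0.57 (log2). None of the 8 genes passed 2-fold under any scaling or filter tried. The number of protein-coding genes past 2-fold, 209 at a mean of 1 TPM, was 84 at a mean of 5 TPM and 1826 with no filter, where low counts enter. The full-length coding measure was chosen after seeing the data. No paired analysis was possible because the labels give a single group. The low depth of Scn4b, 84 and 63 counts, limits its ratio, and transcript splits rest on how the authors' model divided shared reads.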
